A study of Mus musculus with 4 samples.

Results

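The genes described here encode C-type lectin receptors, cell surface proteins that bind sugars on pollens, mites and microbes. They were chosen by name: Clec4d, Clec4e, Clec4n, Clec7a, Mrc1, Mgl2 and Cd209a. Of these 7 genes, 6 had a row among the 13838 genes of the matrix, and Clec7a, which encodes the beta-glucan receptor Dectin-1, was not analysed here. The sugars that the receptors bind were not measured, so the name of the group rests on the known biology of the proteins.

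The study profiled single cells from bronchoalveolar lavage, the cells washed out of the airways and alveoli, of C57BL/6 mice. There were 4 libraries, 1 for each group, and each was made from the pooled lavage of 7 mice. Mice of the control group breathed filtered air and received intranasal PBS. Mice of the house dust mite (HDM) group breathed filtered air and received 10 µg of HDM in the nose on days 22 and 29, then HDM challenges on days 36, 37 and 38. Mice of the Afghanistan particulate matter (APM) group breathed aerosolized APM at 5 mg per cubic metre for 6 hours a day over 12 days, and received PBS from 9 days later. Mice of the HDM+APM group had both exposures, and lavage of all groups was on day 39. With 1 pooled library for each group, no difference between groups has a replicate check, and no p-value is given. All intervals below are exact 95% intervals that cover counting error only, and the unique molecular identifiers (UMIs) of 1 cell are not independent of each other.

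C-type lectin receptors fall into signalling and endocytic kinds. Clec4n encodes Dectin-2, a receptor for mannose-rich glycans that signals through the Fc receptor gamma chain (Fcer1g), the kinase Syk and the adaptor Card9, and is known for lipid mediator release after contact with mite extracts. Clec4e encodes Mincle, a receptor for glycolipids on the same signalling chain, and Clec4d encodes MCL, its partner receptor. Mrc1 encodes the mannose receptor, an endocytic receptor and a classical product of alveolar macrophages. Mgl2 encodes a lectin for galactose-type sugars, and Cd209a a relative of DC-SIGN, both known from dendritic cells and from macrophages exposed to type 2 cytokines.

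In the GENCODE vM21 annotation of mm10, Clec4n (chr6:123229843-123247021, plus strand), Clec4d (chr6:123262111-123275265, plus strand) and Clec4e (chr6:123281789-123289870, minus strand) lie within 60.0 kb of chromosome 6. Mrc1 lies at chr2:14229392-14332057 on the plus strand, where the microRNA gene Mir511 overlaps it. Mgl2 lies at chr11:70130329-70137550 on the plus strand and Cd209a at chr8:3743397-3748984 on the minus strand. The promoters of the pairs Clec4d with Clec4e and Mgl2 with Cd209a are shown because the members of each pair had like levels across clusters. Each is the RefSeq window on GRCm38.p6 from 250 bases before the start site to 50 bases after it, and capitals mark matches to PU.1 (GAGGAA), C/EBP (TTGCNNAA) and NF-kB (GGGA, any 4 bases, then CC) motifs on either strand.
Clec4d, chr6:123261857-123262156, plus strand: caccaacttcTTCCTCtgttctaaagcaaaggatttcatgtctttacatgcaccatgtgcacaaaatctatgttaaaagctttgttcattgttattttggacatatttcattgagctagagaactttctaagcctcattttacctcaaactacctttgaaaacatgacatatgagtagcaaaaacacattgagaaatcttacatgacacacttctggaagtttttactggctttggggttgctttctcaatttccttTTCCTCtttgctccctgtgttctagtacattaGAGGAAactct
Clec4e, chr6:123289822-123290121, minus strand: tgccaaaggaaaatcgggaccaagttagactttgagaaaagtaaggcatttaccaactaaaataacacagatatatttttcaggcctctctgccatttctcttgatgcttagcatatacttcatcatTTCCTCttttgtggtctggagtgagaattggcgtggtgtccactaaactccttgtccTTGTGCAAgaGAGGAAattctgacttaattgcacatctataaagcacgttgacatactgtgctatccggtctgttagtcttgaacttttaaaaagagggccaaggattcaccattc
Mgl2, chr11:70130107-70130406, plus strand: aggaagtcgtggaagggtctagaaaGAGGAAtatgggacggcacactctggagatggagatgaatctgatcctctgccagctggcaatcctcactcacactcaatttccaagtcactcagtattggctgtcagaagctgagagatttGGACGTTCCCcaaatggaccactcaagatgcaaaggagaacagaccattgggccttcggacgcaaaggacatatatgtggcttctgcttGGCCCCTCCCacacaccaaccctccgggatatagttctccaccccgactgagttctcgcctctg
Cd209a, chr8:3748935-3749234, minus strand: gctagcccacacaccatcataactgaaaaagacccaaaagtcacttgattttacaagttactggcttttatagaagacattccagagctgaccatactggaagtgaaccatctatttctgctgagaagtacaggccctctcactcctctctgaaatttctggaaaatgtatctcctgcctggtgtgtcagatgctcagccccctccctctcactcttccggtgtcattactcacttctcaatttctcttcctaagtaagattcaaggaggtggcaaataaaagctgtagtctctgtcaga
The Clec4d window held 3 PU.1 matches, and the Clec4e window held 2 PU.1 matches and 1 C/EBP match. The Mgl2 window held 1 PU.1 match and 2 NF-kB matches, and the Cd209a window held none. The Mrc1 window, which is not printed, held 3 PU.1 matches and 1 NF-kB match. Among 32851 RefSeq promoters of this length, 28.3% held the PU.1 letters, 10.8% the C/EBP letters and 20.7% the NF-kB letters. The AP-1 letters (TGANTCA, in 7.81% of promoters) and the STAT6 letters (TTC, any 4 bases, then GAA, in 6.95%) were not in any of the 5 member windows. These matches describe letters only, and no binding was measured.

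The deposited matrix held 9925 cells and 33643423 UMIs. Depth differed between libraries, from a median of 1380 UMIs per cell in HDM to 4780 in HDM+APM, and 84 cells carried a barcode that was also in another library. The cell mix differed more. The control and APM libraries were mostly macrophages of clusters 1 to 7, 9 and 10, with 3776 and 3501 cells, against 60 in HDM and 46 in HDM+APM. Macrophage 8 was the macrophage cluster with at least 110 cells in every library, and the 308 cells that the authors named classical monocyte all came from HDM+APM. Their leading genes (Alox15, Prg4, Saa3, Cd5l, C1qc) included 2 markers of cavity macrophages and 2 of monocyte-derived macrophages in the first 10 and no monocyte marker, so the authors' name is used as a label only. The 10 leading genes of Macrophage 8 (Mmp12, Ccl24 and others) held no alveolar macrophage marker. The cluster named epithelial had 4 red blood cell markers and 2 epithelial markers among its 10, and the granulocyte-like cluster 3 neutrophil markers.

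Levels are given in CPM, the UMIs of a gene for every 1000000 UMIs of a set of cells. Since 1 molecule gives 1 UMI at its 3′ end, CPM can be compared between genes without a length term. Over all cells Clec4n had the most UMIs of the group, 17547 in 6133 cells, and Mrc1 had 10440 in 5282 cells. Clec4e had 4078 UMIs in 2006 cells and Clec4d 4037 in 2415 cells. Mgl2 and Cd209a were rare, with 202 UMIs in 103 cells and 140 UMIs in 61 cells. Clusters were made from all genes, these included, so the levels by cluster are descriptions with no test.

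**Figure D1:**
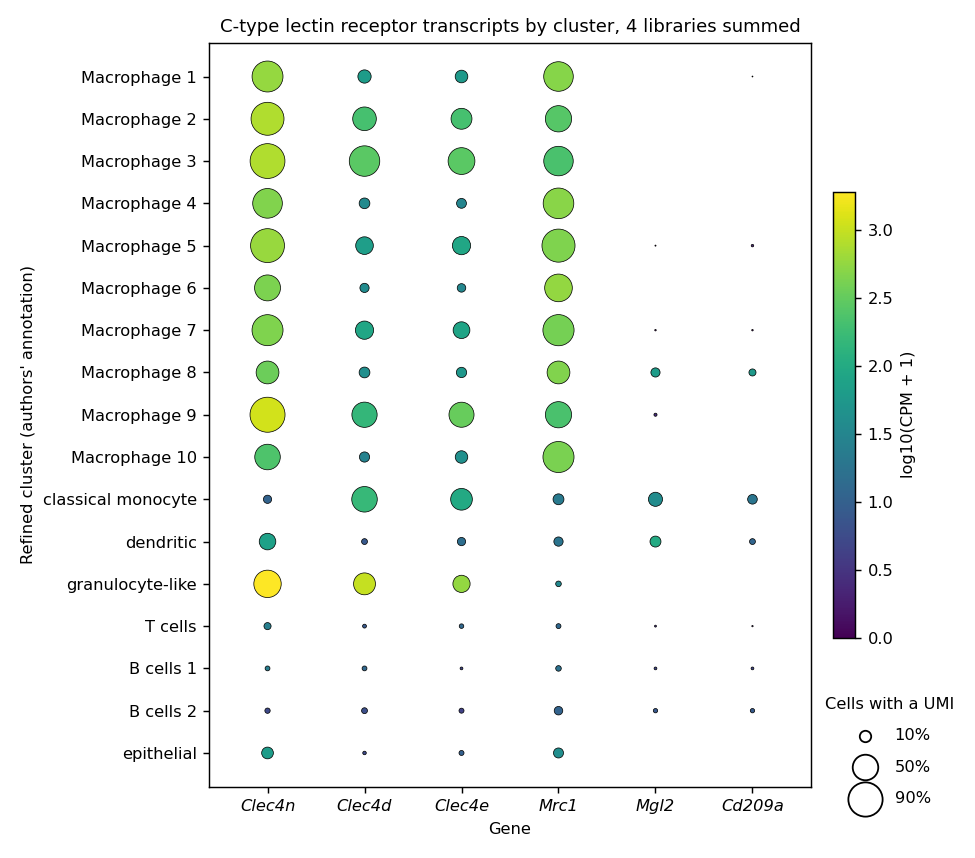
Levels of the 6 measured receptors (columns) in the 17 refined clusters (rows), 4 libraries summed. Dot area is the share of cells with at least 1 UMI and colour is log10(CPM + 1). Clec4n, Clec4d and Clec4e were highest in granulocyte-like cells, and Mrc1 was at 216 CPM or more in every macrophage cluster. Mgl2 was highest in dendritic cells, Macrophage 8 and classical monocyte cells. Cd209a was highest in Macrophage 8 and then in classical monocyte cells, with 3 UMIs in dendritic cells and 17 in B cells 2.

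Clec4n, the Dectin-2 gene, was present in every macrophage cluster and, by CPM over the 4 libraries summed, highest in granulocyte-like cells. Its level there was 1924 CPM (1709 to 2158), followed by Macrophage 9, a cluster led by heat shock genes, at 1160 CPM (1077 to 1247). Macrophage 2 at 778 CPM and Macrophage 3 at 772 CPM did not differ beyond counting error. The remaining macrophage clusters ran from 599 CPM in Macrophage 5 down to 231 CPM in Macrophage 10. Macrophage 5 overlapped Macrophage 1 (583 CPM), and Macrophages 4, 7 and 6 (454, 442 and 436 CPM) overlapped in turn. Dendritic cells, at 72.9 CPM, and cells named epithelial, at 61.8 CPM, lay far below. The lowest levels were in cells named classical monocyte, 9.76 CPM (5.58 to 15.8), and in B cells 2, 4.29 CPM.

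Shares of cells with a Clec4n UMI were also higher in every macrophage cluster than in T cells, but were not highest in granulocyte-like cells. They reached 94.1% in Macrophage 9 and 93.0% in Macrophage 3, against 3.89% in T cells, a type that should lack the gene and had a median depth of 1404 UMIs. Macrophage 3 was deeper, with a median of 5506 UMIs, and after thinning every cell to 1000 UMIs the shares were 50.8% in Macrophage 3 and 2.21% in T cells. Granulocyte-like cells, the highest by CPM, had a share of 57.5% at a median depth of 692 UMIs. Only 16 of them could be thinned, and 8 of those held Clec4n, against 63.0% of thinned Macrophage 9 cells. In the control library, where T cells were few, 5 of 13 held a Clec4n UMI, and the source of those UMIs was not tested. In cells named classical monocyte the share was 5.19% at a median depth of 5270 UMIs and 0.974% after thinning, below the thinned share in T cells.

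Clec4d and Clec4e, the MCL and Mincle genes, had nearly the same order of clusters as each other. Clec4d was at 985 CPM (833 to 1156) in granulocyte-like cells, 277 CPM in Macrophage 3 and 205 CPM in Macrophage 2. Cells named classical monocyte followed at 158 CPM (139 to 178), overlapping Macrophage 9 at 148 CPM. Macrophages 7, 5 and 1 were at 86.4, 66.2 and 63.3 CPM, and Macrophages 8, 6, 4 and 10 between 41.1 and 28.0 CPM. T cells were at 7.04 CPM and dendritic cells at 6.94 CPM. The gene was detected in all 10 macrophage clusters. It ranked 10th among the leading genes of Macrophage 3, so its level there is part of what defines that cluster.

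Clec4e was at 568 CPM (455 to 702) in granulocyte-like cells. Macrophage 9 followed at 335 CPM (291 to 383), overlapping Macrophage 3 at 279 CPM, and Macrophage 2 was at 208 CPM. Cells named classical monocyte, at 96.4 CPM, overlapped Macrophages 5 and 7 at 85.6 and 82.3 CPM. T cells were at 11.4 CPM, with 1.59% of cells positive against 55.1% in Macrophage 3. After thinning the Macrophage 3 share was 21.8% and that of T cells 1.10%. In Macrophage 3 alone lay 44.1% of all Clec4d UMIs and 44.0% of all Clec4e UMIs, against 28.2% of Clec4n UMIs and 19.1% of the UMIs of all genes.

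The 3 neighbouring genes were not in 1 ratio across clusters. For each Clec4d UMI there were 12.8 Clec4n UMIs in Macrophage 4 (10.5 to 15.8), 9.22 in Macrophage 1 (8.05 to 10.6), 2.78 in Macrophage 3 (2.64 to 2.94) and 1.95 in granulocyte-like cells (1.60 to 2.40). In cells named classical monocyte the order was turned around, with 16 Clec4n UMIs beside 259 Clec4d UMIs, a ratio of 0.0618 (0.0348 to 0.102). In these cells the MCL gene was thus at the level of Macrophage 9 and the Mincle gene at that of Macrophages 5 and 7, while the Dectin-2 gene overlapped the levels of B cells 1 and 2. Clec4d and Clec4e themselves stayed near 1 to 1 in Macrophages 2, 3 and 7 (0.985, 0.992 and 1.05 Clec4d UMIs for each Clec4e UMI). The ratio was 0.441 (0.342 to 0.565) in Macrophage 9, 1.64 (1.34 to 2.01) in cells named classical monocyte and 1.73 (1.32 to 2.29) in granulocyte-like cells.

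**Figure D2:**
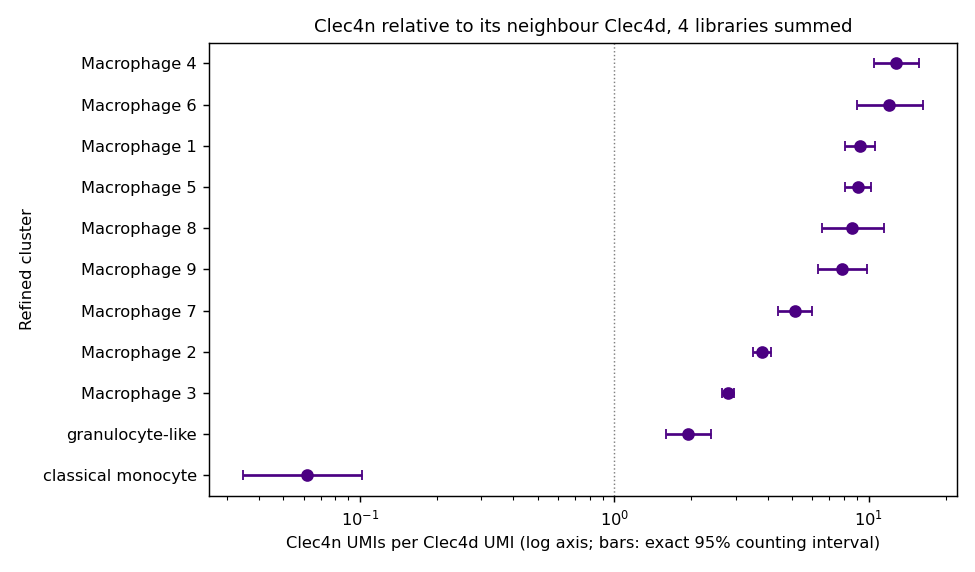
Clec4n UMIs for each Clec4d UMI (horizontal axis, log scale) in the 11 clusters with at least 20 Clec4d UMIs, 4 libraries summed. Points are ratios and bars exact 95% counting intervals. The ratio ran from 0.0618 in cells named classical monocyte to 12.8 in Macrophage 4.

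Detection of Clec4d and Clec4e in the same cell was compared within 1 cluster and library. Among the 906 Macrophage 3 cells of the control library, Clec4e was found in 59.8% of Clec4d-positive cells and 44.7% of Clec4d-negative cells, and in 25.9% and 21.7% after thinning to 1000 UMIs. In the 308 cells named classical monocyte the shares were 32.5% and 39.6%, and 6.98% and 8.68% after thinning. The positive cells thus had the higher share in Macrophage 3 and the lower one in cells named classical monocyte, before and after thinning. Thinning lowered every share, so the smaller gaps after it do not show a weaker relation. In cells named classical monocyte the thinned share of positive cells rested on 3 of 43 cells.

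Granulocyte-like cells were few and shallow, with a median of 692 UMIs and only 16 of 207 cells at 1000 UMIs, and their levels differed between libraries. Clec4d was at 3225 CPM in 7 control cells, 643 CPM in 132 HDM cells, 2029 CPM in 29 APM cells and 827 CPM in 39 HDM+APM cells. Clec4e was at 1018, 519, 738 and 513 CPM in the same order, and Clec4n at 1528, 2110, 2675 and 1055 CPM. Clec4d and Clec4e were lower in both libraries of HDM-exposed mice than in the other 2, while Clec4n was lowest in HDM+APM and second highest in HDM. Beside the 1160 CPM of Macrophage 9 over all libraries, Clec4n was lower in HDM+APM granulocyte-like cells, on 37 UMIs, and higher in those of control, HDM and APM. Fewer than 50 cells in all but the HDM library left no comparison to make here. Without the HDM library the summed Clec4d level was 1469 CPM, and without the APM library 810.2 CPM. The 16 cells that could be thinned had 875 CPM of Clec4d, 437.5 of Clec4e and 1250 of Clec4n.

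Mrc1, the mannose receptor gene, had another order among macrophages. It was highest in Macrophage 6 at 559 CPM (519 to 600), overlapping Macrophage 4 at 498 CPM, which overlapped Macrophage 1 at 479 CPM. Macrophages 8, 5, 10 and 7 followed at 461, 448, 420 and 392 CPM, each overlapping the next. Macrophages 2, 3 and 9, which were the 3 macrophage clusters with the most Clec4d, had the least Mrc1, with 259, 218 and 216 CPM. Outside macrophages no cluster exceeded 39.7 CPM, the level of cells named epithelial. Granulocyte-like cells were at 33.1 CPM, cells named classical monocyte at 20.7 CPM and T cells at 11.4 CPM. The share of Mrc1-positive cells was 83.9% in Macrophage 5 and 1.87% in T cells, and 34.9% and 1.65% after thinning.

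Mgl2 was found in 3 clusters above the level of lymphocytes. Its highest level was in dendritic cells, 97.2 CPM (64.6 to 140) from 28 UMIs in 7 of 76 cells, overlapping Macrophage 8 at 62.7 CPM (50.5 to 77.1) from 90 UMIs in 37 of 573 cells. Without the HDM library, which gave 20 of the 28 UMIs, the dendritic level was 54.5 CPM and Macrophage 8 was highest. Cells named classical monocyte followed at 37.8 CPM (29.0 to 48.5), with 62 UMIs in 47 cells, a share of 15.3% against 0.288% in T cells. Macrophages 1, 2, 3, 4, 6 and 10 held no Mgl2 UMI, and the 3 UMIs of the other macrophages came from Macrophages 5, 7 and 9. In Macrophage 3, 0 UMIs put the level below 0.468 CPM at a limit of 3 counts.

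Cd209a was highest in Macrophage 8 at 57.2 CPM (45.5 to 71.0), with 82 UMIs in 22 cells. Cells named classical monocyte were at 17.7 CPM (11.8 to 25.4), with 29 UMIs in 22 cells, and overlapped dendritic cells at 10.4 CPM from 3 UMIs. Macrophage 8 thus held 58.6% of all Cd209a UMIs and 44.6% of all Mgl2 UMIs with 4.26% of the UMIs of all genes. In B cells 2, 17 Cd209a UMIs lay in 6 cells and 16 Mgl2 UMIs in 6 cells, of which 1 cell held 11 Mgl2 UMIs. No doublet removal was run, and whether those are mixed droplets was not tested.

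In Macrophage 8 the 2 genes marked overlapping cells, and in cells named classical monocyte they did not. Among Macrophage 8 cells Cd209a was detected in 35.1% of the 37 Mgl2-positive cells and 1.68% of the Mgl2-negative ones, with 13 cells holding both. Among cells named classical monocyte the shares were 6.38% and 7.28%, with 3 cells holding both. Positive cells of Macrophage 8 also held more copies on average, with 2.43 Mgl2 UMIs and 3.73 Cd209a UMIs per positive cell, against 1.32 and 1.32 in cells named classical monocyte, although the latter were deeper. These means were raised by few cells. In Macrophage 8, 20 of 37 Mgl2-positive and 9 of 22 Cd209a-positive cells held 2 or more UMIs, up to 11 and 16. Among cells named classical monocyte 10 of 47 and 4 of 22 did.

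The 46 Macrophage 8 cells with either gene differed in other transcripts from the 527 with neither, as genes picked after their values were seen show. The antigen presentation genes H2-Ab1 and Cd74 were at 8007 and 21707 CPM in them, against 1842 and 4429 CPM in the others. Ccr2, a chemokine receptor of monocyte-lineage cells, was at 279 against 96.6 CPM. Chil3, a secreted chitinase-like protein of alveolar macrophages, was at 7490 against 24831 CPM, and Mrc1 at 212 against 490 CPM. Clec4e had no UMI in the 46 cells, which allows a level of up to 19.9 CPM at a limit of 3 counts, and was at 59.2 CPM in the others. The 46 cells were deeper, with a median of 3164.5 against 1424 UMIs, and came from all libraries (3 control, 17 HDM, 12 APM and 14 HDM+APM cells). Their dendritic cell markers other than the 2 genes summed to 186 against 84.1 CPM and their monocyte markers to 1022 against 224 CPM. Red blood cell markers summed to 1400 CPM in the 46 cells against 7005 in the others, epithelial markers to 876 against 3331 CPM and alveolar macrophage markers to 9739 against 30346 CPM. The part of these in the differences between the 46 cells and the others was not tested.

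Gene patterns nearest to each receptor were taken over the 17 cluster levels, points that share libraries and depth, as Pearson r of log2(CPM + 10) among 8530 genes with at least 200 UMIs. Clec4d and Clec4e were each other's nearest gene (r = 0.96), followed for both by the kinase gene Mapkapk2 (0.94 for each), and then by Cd300lb for Clec4d (0.94) and Fnip2 for Clec4e (0.94). Clec4n was nearest to Atp6v1c1, a proton pump subunit (0.97), the transglutaminase gene Tgm2 (0.96) and AF251705 (0.96), and its r with Clec4d was 0.69. Mrc1 was nearest to Flt1 (0.98), Ear2 (0.98) and Plet1 (0.97), genes whose highest levels were also in macrophage clusters. Cd209a was nearest to Mgl2 (0.86), Arg1 (0.86) and Ccl24 (0.85), genes of macrophages exposed to type 2 cytokines. Mgl2 was nearest to Ramp3 (0.88), Ccl24 (0.86) and Cd86 (0.86). Cd209a, with 140 UMIs, was under the limit of 200 UMIs and could not be listed, and its r with Mgl2 was 0.863.

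Of the signalling chain that Clec4n, Clec4d and Clec4e use, Fcer1g was abundant, with 76103 UMIs in all and its highest level, 4264 CPM, in granulocyte-like cells. It was at 998 CPM in cells named classical monocyte. Syk had 5184 UMIs and was highest in B cells 2 at 355 CPM. Card9 was sparse, with 413 UMIs, a highest level of 23.0 CPM in Macrophage 6. Granulocyte-like cells held no Card9 UMI, which allows up to 19.8 CPM at a limit of 3 counts, so a level like that of most macrophage clusters was not detectable there. All 24 genes of the signalling list were in the matrix, as were 18 of 21 listed output genes and 28 of 36 other C-type lectin receptor genes.

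The comparison of HDM with control asked what allergen did to receptor levels in air-exposed mice. A gene was called past 2-fold when its log2 ratio of (CPM + 10) was at least 1 in size, among genes with at least 20 UMIs over both libraries. In Macrophage 8, Clec4d was at 89.0 CPM in control (14 UMIs), 15.2 in HDM (7 UMIs), 93.4 in APM (30 UMIs) and 16.1 in HDM+APM (8 UMIs). The 2 libraries with HDM were low and the 2 without it high. Control and APM were also the libraries rich in Macrophages 1 to 7, 9 and 10, with 3776 and 3501 cells against 60 in HDM. Those cells held 166 CPM of Clec4d in control and 96.7 in APM. Whether stray transcripts from them had a part in the few Clec4d UMIs of Macrophage 8 was not tested. Clec4d was 5.84-fold lower in HDM than in control (2.21 to 17.1).

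Mrc1 in Macrophage 8 was at 178 CPM in control, 590 in HDM, 237 in APM and 576 in HDM+APM, so that the libraries with HDM were both high. It was 3.32-fold higher in HDM than in control (2.24 to 5.08). Mrc1-positive cells were 22 of 110 in control and 84 of 139 in HDM, and 18.8% and 43.0% of cells after thinning. T cells of all libraries together were at 1.87%, and at 1.65% after thinning. Of those 694 T cells 493 came from HDM, so these shares do not show the background in control. The median depth of Macrophage 8 cells was 1176 UMIs in control and 3056 in HDM.

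Clec4n in Macrophage 8 was at 515, 385, 408 and 238 CPM in control, HDM, APM and HDM+APM, and was 1.34-fold lower in HDM than in control (1.01 to 1.75). Clec4e was at 50.9, 47.9, 71.6 and 46.3 CPM, and its ratio of 0.942 (0.404 to 2.45) included 1. Of the 22 Clec4e UMIs in HDM, 15 came from 1 cell, and without the top cell of each member the log2 ratio moved from -0.07 to -0.72. As a mean over cells it was -1.06. Mgl2 was at 25.4, 65.3, 77.8 and 62.4 CPM, from 4, 30, 25 and 31 UMIs. Its HDM ratio of 2.57 was past 2-fold with an interval of 0.905 to 10.0 that included 1. On the log2 scale it was 1.09, against 2.41 as a mean over cells and 0.97 without cells rich in epithelial or red blood cell markers. Cd209a was at 31.8, 50.1, 34.2 and 86.6 CPM, where the 5 control UMIs came from 1 cell, and its HDM ratio was 1.58 (0.586 to 5.31). Without the top cell of each library its log2 ratio was 1.77 in place of 0.52, so that value rested on single cells.

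In all, 2 of 6 members were past 2-fold higher and 1 lower in HDM than in control. Of all 4024 genes tested in Macrophage 8, 16.2% were past 2-fold, 10.4% higher and 5.82% lower. After thinning, Clec4d was at 72.5 CPM in control and 33.1 in HDM, a log2 ratio of -0.94 in place of -1.97. Only 4 of the 121 thinned HDM cells held Clec4d. That ratio rested on fewer UMIs over both libraries than a call needs, so it cannot show whether the difference shrank. The log2 ratio of Clec4n moved from -0.41 to -1.04 after thinning, past 2-fold.

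Other marker lists moved with these libraries. The 15 alveolar macrophage markers other than Mrc1 summed to 9160 CPM in control, 39582 in HDM, 8264 in APM and 36547 in HDM+APM Macrophage 8 cells, with every marker detected in each. Without Chil3 the other 14 summed to 4551, 6306, 4081 and 5026 CPM. The 6 epithelial markers summed to 15745, 318, 3259 and 1486 CPM, with Foxj1 at 0 in control, HDM and APM and Krt8 and Krt18 also at 0 in HDM, and the 5 red blood cell markers to 375, 6195, 19541 and 42.3 CPM. Without cells in which those 2 lists made up over 1% of UMIs (1 of 110 control, 6 of 139 HDM, 54 of 214 APM and 1 of 110 HDM+APM cells), Clec4d was at 93.9, 15.6, 95.9 and 16.2 CPM and Mrc1 at 188, 602, 208 and 579.5 CPM. The 7 monocyte markers summed to 57.2 CPM in control, 314 in HDM, 62.3 in APM and 542 in HDM+APM. That was the same division between libraries with and without HDM as for Clec4d and Mrc1. Ly6c2 and Plac8 were at 0 in control and APM. These 2 were not particular to monocytes here, as Ly6c2 was a leading gene of T cells and Plac8 of B cells 2. The 5 T cell markers in the matrix summed to 19.1, 115, 18.7 and 36.2 CPM, the 8 neutrophil markers to 57.2, 246, 84.0 and 66.5 CPM and the 6 B cell markers to 0, 39.2, 0 and 228 CPM. The part of these lists in the member differences was not tested.

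In Macrophages 1 to 7, 9 and 10, read as 1 class, Clec4d was at 166 CPM in control, 38.1 in HDM, 96.7 in APM and 75.0 in HDM+APM. Control was highest and HDM lowest, on 10 UMIs in 60 cells. Clec4d was 4.36-fold lower in HDM than in control (2.36 to 9.09), and its log2 ratio of -1.87 was -1.62 with the control clusters weighted to the cell shares of HDM.

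Clec4n was at 699, 381, 562 and 323.5 CPM in the same order, 1.84-fold lower in HDM than in control (1.51 to 2.26), and its log2 ratio of -0.86 was -1.02 without the top cell of each library. Mrc1 was at 341, 689, 400 and 489 CPM and was 2.02-fold higher (1.73 to 2.35), with a log2 ratio of 0.99 just short of the limit. Clec4e was at 176, 171, 97.1 and 75.0 CPM, a ratio of 0.975 (0.710 to 1.31). That value rested on 1 cell with 14 of the 45 UMIs in HDM, without which the log2 ratio was -0.50, and with control weighted to the HDM shares it was 0.24. Of 4 members tested, 1 was past 2-fold, lower, where 4.65% of 10358 genes were past 2-fold and 2.06% lower. The HDM+APM class had 46 cells, so its values stand without a comparison. Mgl2 had 0, 0, 2 and 1 UMIs and Cd209a 1, 1, 5 and 0 UMIs in these cells.

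**Figure D3:**
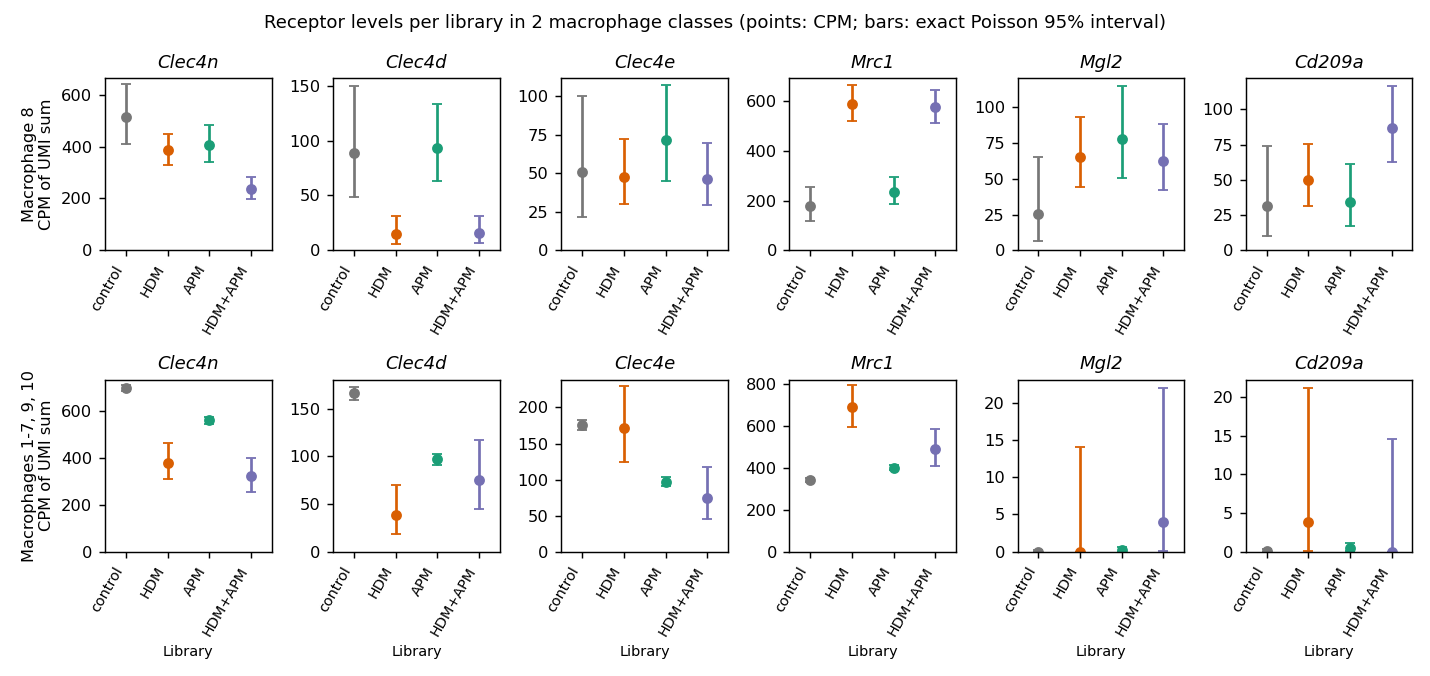
CPM of each receptor (columns) by library in Macrophage 8 (upper row) and in Macrophages 1 to 7, 9 and 10 (lower row). Points are CPM and bars exact Poisson 95% intervals. In Macrophage 8, Clec4d had upper limits of 31.4 and 31.7 CPM in HDM and HDM+APM and lower limits of 48.7 and 63.0 CPM in control and APM, and Mrc1 showed the opposite order.

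The genes around the receptors moved with HDM in Macrophage 8 as follows. Of 17 signalling genes tested, 5 were past 2-fold, all higher, and the median of the list was 0.35 (log2) beside 0.07 for all genes. Of all 4024 genes tested, 10.4% were past 2-fold higher and 5.82% lower. Prkcd, the kinase between Syk and Card9, was 2.73-fold higher (1.87 to 4.10), from 197 to 538 CPM. Vav2 and Malt1 rested on 2 control UMIs each, with ratios of 4.45 (1.12 to 38.7) and 3.77 (0.926 to 33.1), and Pik3cd on 4.

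Of 11 output genes tested, 5 were past 2-fold higher and 1 lower, beside 10.4% and 5.82% of all genes, with a median of -0.02. Il1b, the interleukin-1 beta gene, was 5.14-fold higher (2.27 to 14.4), from 38.1 to 196 CPM. Tnfaip3, a feedback inhibitor of NF-kB, was at 19.1 and 76.2 CPM, and Egr2 had 0 control UMIs and 35 HDM UMIs. The chemokine gene Ccl4 had 1 control UMI and 66 HDM UMIs, a ratio of 22.6 (3.92 to 906). Granulocyte-like cells, with 21477 CPM of Ccl4, numbered 132 in the HDM library and 7 in control, and within Macrophage 8 the 8 neutrophil markers summed to 246 CPM in HDM and 57.2 in control. Their part in the output values was not tested. Of 12 other C-type lectin receptor genes, 5 were past 2-fold higher and 0 lower, with a median of 0.86. Clec4a3 was 3.43-fold higher (2.16 to 5.73), from 127 to 435 CPM, and Clec4b1, Clec4a1 and Cd93 rested on 2, 2 and 3 control UMIs.

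The comparison of HDM+APM with APM asked the same of mice that had breathed the particulate. In Macrophage 8, Clec4d was 5.80-fold lower in HDM+APM (2.60 to 14.6) and Mrc1 2.43-fold higher (1.88 to 3.18), the directions also seen in air-exposed mice. Whether the sizes differ between air and APM mice was not tested. After thinning Clec4d was at 23.3 CPM in HDM+APM and 113 in APM, a log2 ratio of -1.89 in place of -1.99, on fewer than the 20 UMIs that a call needs. Cd209a was 2.53-fold higher (1.28 to 5.44), with 43 UMIs in 10 cells against 11 UMIs in 7 cells, and its log2 ratio of 1.13 was 0.85 without cells rich in epithelial or red blood cell markers. Clec4n was 1.72-fold lower (1.33 to 2.22), and its log2 ratio of -0.75 was -1.35 as a mean over cells. The Clec4e ratio was 0.647 (0.347 to 1.21) and the Mgl2 ratio 0.802 (0.458 to 1.42), and both intervals included 1. After thinning the Clec4e log2 ratio was 1.18 in place of -0.53, and that of Mgl2 was 0.12 without the top cell of each library in place of -0.28, so neither had a settled direction.

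Of 6 members, 2 were past 2-fold higher and 1 lower, where 9.46% of 4726 genes were past 2-fold, 4.97% higher and 4.49% lower. As a mean over cells of each cell's CPM, the Mrc1 log2 ratio was 0.65 in place of 1.25, and after thinning it was 0.90. Prkcd was 2.35-fold higher (1.70 to 3.30) and Syk 2.21-fold higher (1.45 to 3.47). Syk was highest in B cells 2, at 355 CPM, and 404 of those 413 cells came from HDM+APM. Within Macrophage 8 the B cell markers were at 0 in APM and detected in HDM+APM. Their part in the Syk value was not tested. Of 16 signalling genes 2 were past 2-fold, both higher, and the median of the list was 0.25 (log2) beside -0.03 for all genes, and of 7 output genes 0 were past 2-fold in either direction. Of 12 other C-type lectin receptor genes 4 were higher and 1 lower. Clec4a3 was 3.14-fold higher (2.22 to 4.53), and Klrb1b, the lower one, had 5 UMIs against 16.

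The balance of Clec4n to its neighbour Clec4d differed along the same line in Macrophage 8. There were 5.79 Clec4n UMIs for each Clec4d UMI in control (3.26 to 11.1) and 4.37 in APM (2.92 to 6.73), against 25.3 in HDM (12.0 to 63.8) and 14.8 in HDM+APM (7.25 to 35.0). Clec4d UMIs for each Clec4e UMI were 1.75 in control (0.685 to 4.81) and 1.30 in APM (0.733 to 2.35), against 0.318 in HDM (0.115 to 0.771) and 0.348 in HDM+APM (0.135 to 0.805). The HDM value came from 7 Clec4d and 22 Clec4e UMIs, and most of those 22 lay in a single cell, as given above. It thus rested on that cell, so no division by HDM exposure is drawn for Clec4d with Clec4e. The ratio without that cell was not computed.

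The comparison of APM with control asked what particulate alone left behind at day 39. It shares the control library with the comparison of HDM with control. In Macrophage 8 the ratio of Mgl2 was 3.06 (1.06 to 12.1), on 25 UMIs against 4. Of 5 members tested 1 was past 2-fold, higher, where 5.46% of 3262 genes were past 2-fold, 3.31% higher and 2.15% lower. Its log2 ratio of 1.31 was 0.76 with a pseudocount of 50 CPM. Clec4d (1.05, 0.540 to 2.14), Clec4e (1.41, 0.608 to 3.64), Clec4n (0.792, 0.596 to 1.06) and Mrc1 (1.33, 0.852 to 2.13) had intervals that included 1. After thinning the Clec4e log2 ratio turned from 0.42 to -0.86.

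In Macrophages 1 to 7, 9 and 10, with 3776 control and 3501 APM cells, Clec4e was 1.81-fold lower in APM (1.68 to 1.95) and Clec4d 1.72-fold lower (1.59 to 1.85). Clec4n was 1.24-fold lower (1.21 to 1.28) and Mrc1 1.17-fold higher (1.13 to 1.22). None of 4 members was past 2-fold, and 0.184% of 10893 genes were. Clec4e lay at percentile 0.119 and Clec4d at percentile 0.184 of all log2 ratios, near the low end.

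The cluster mix of the 2 libraries differed. Macrophage 3, rich in both genes, had 906 control and 179 APM cells, and Macrophage 4, poor in both, had 22 and 1033. With clusters given equal shares in both libraries, the log2 ratio of Clec4d was -0.21 in place of -0.72, that of Clec4e -0.28 in place of -0.79, and that of Mrc1 turned from 0.22 to -0.13. Within single clusters with at least 50 cells in both libraries (Macrophages 1, 2, 3, 5, 7 and 9) no member was past 2-fold, where 3.52%, 0.38%, 0.434%, 0.305%, 0.486% and 5.05% of genes were.

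Clec4e was lower in APM, with an interval that excluded 1, in Macrophage 5 (1.79-fold, 1.45 to 2.22), Macrophage 7 (1.55-fold, 1.15 to 2.10) and Macrophage 9 (1.68-fold, 1.25 to 2.27). Its ratios in Macrophages 1, 2 and 3 were 0.923, 1.06 and 0.961. Clec4d was lower in Macrophage 7 (1.80-fold, 1.35 to 2.41) and Macrophage 5 (1.34-fold, 1.07 to 1.70), and higher in Macrophage 2 (1.19-fold, 1.02 to 1.37). Mrc1 was lower in Macrophage 1 (1.46-fold, 1.16 to 1.86) and between 0.826 and 1.00 times control in the other 5. Whether these ratios differ between clusters was not tested.

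None of the 22 signalling genes, 14 output genes and 19 other receptor genes tested in the class was past 2-fold. Tnf, at 8.59 CPM in APM and 20.5 in control, and Cxcl2, at 43.7 and 75.3 CPM, were the 2 outputs with the lowest log2 ratios. The integrin gene Itgb2 was 1.42-fold lower (1.37 to 1.48), and Ltc4s, which makes leukotriene C, 1.33-fold higher (1.28 to 1.38).

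The comparison of HDM+APM with HDM asked whether earlier particulate altered the levels seen with allergen. Of 5 members tested in Macrophage 8 none was past 2-fold, where 3.98% of 5176 genes were, 1.55% higher and 2.43% lower, and Clec4d, with 8 and 7 UMIs, was too sparse to test. Clec4n was 1.62-fold lower in HDM+APM (1.28 to 2.07), and Cd209a was 1.73-fold higher (1.02 to 3.01). Mrc1, at 576 against 590 CPM, had a ratio of 0.976 (0.824 to 1.16), and the ratios of Mgl2 (0.956, 0.560 to 1.63) and Clec4e (0.967, 0.515 to 1.82) also included 1. The Clec4e log2 ratio of -0.04 was 1.12 as a mean over cells and 1.01 after thinning.

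Of 10 output genes 6 were past 2-fold, all lower, and the median of the list was -1.18 (log2) beside -0.06 for all genes. Of all 5176 genes tested, 1.55% were past 2-fold higher and 2.43% lower. Ccl4 was 4.20-fold lower (2.43 to 7.63), Cxcl2 3.55-fold lower (1.48 to 9.80), and Egr2 and Tnfaip3 each 3.15-fold lower (1.60 to 6.67). Of 19 signalling genes 1 was past 2-fold higher (Plcg2, 2.77-fold, 1.14 to 7.73) and 1 lower (Vav2, 2.56-fold, 1.22 to 5.73). Of 12 other C-type lectin receptor genes 0 were past 2-fold. Granulocyte-like cells numbered 132 in HDM and 39 in HDM+APM, and within Macrophage 8 the 8 neutrophil markers summed to 246 CPM in HDM and 66.5 in HDM+APM. Their part in the output values was not tested.

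**Figure D4:**
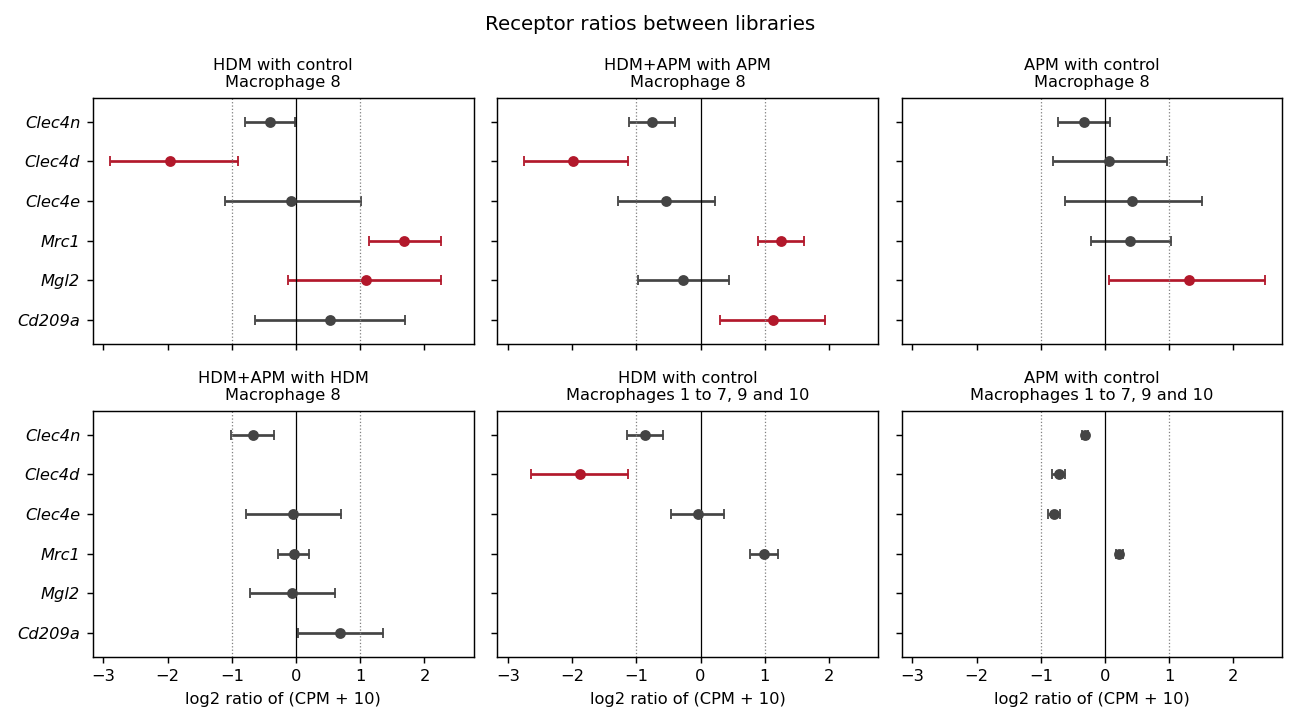
Log2 ratio of (CPM + 10) between libraries (horizontal axis, first library over second) for each receptor with at least 20 UMIs over both. Bars are counting intervals, dotted lines mark 2-fold, and red marks values past it. Clec4d at -1.97, -1.99 and -1.87 lay left of the 2-fold line in each of the 3 panels that compare HDM-exposed with unexposed libraries. The panels with -1.97 and -1.87 use the same HDM and control libraries. No member passed 2-fold in HDM+APM against HDM.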

How the data were processed

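The files hold deposited UMI counts per gene and cell and the authors' cell annotation. The libraries were made with the 10x 3′ kit (version 2), per the labels' protocols, and Cell Ranger 2.2.0, Seurat 2.3.4 and mm10 are named per the submitters' processing notes; the deposited counts are whole UMIs, not normalized. The annotation gives 17 refined and 7 coarse clusters, and the refined ones were used, so 23 cells of refined macrophage and coarse epithelial type were kept. No doublet step is stated in the sources used here and none was added. UMIs were summed per cluster and library and divided by the sum over all genes, as CPM. CPM intervals are exact Poisson, shares Clopper-Pearson and ratios conditional binomial, at 95%; shares of cells were also taken after thinning cells to 1000 UMIs. Classes needed 50 cells in both libraries. Named genes are all members and up to 4 genes of each list with the largest log2 ratio per comparison, and the 3 nearest genes of each member over the clusters. Fcer1g, Syk and Card9 levels were added as the known chain. With 1 library a group no test was run. Members, lists and comparisons were chosen with earlier results of these data known. Ratios were checked on simulated counts. Alternatives changed the pseudocount (1 or 50 CPM), thinning, weighting and the cells kept; those leaving out marker-rich cells, coarse epithelial cells or each member's top cell, and the weighting of control to HDM shares, were chosen after seeing the data. Python 3.11.15, numpy 2.4.6, scipy 1.17.1 and pandas 2.3.3 were used.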

Additional observations from a re-analysis of the deposited data

How the results depend on the processing

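No paired analysis was possible because each group is 1 library. Of 136 recomputed counts and cluster levels, 109 stayed within 1.5 times the count or within the interval of the level, and 27 moved. Of 514 values of single members or clusters, 460 stayed within their interval and 52 moved. The sign changed for 20 log2 ratios: 18 had a main interval that included 1 on the ratio scale, and 2 had one that excluded it, which were Mrc1 in APM against control in Macrophages 1 to 7, 9 and 10 with equal cluster shares (-0.13) and Clec4n in Macrophage 5 after thinning (0.044). For HDM against control in Macrophage 8, members past 2-fold higher numbered 1 in place of 2 with a pseudocount of 50 CPM, after thinning, without marker-rich cells and without coarse epithelial cells, and members lower numbered 2 in place of 1 as a mean over cells. In the other macrophages, members higher numbered 1 with a pseudocount of 1 CPM and 2 with all alveolar macrophages as 1 class, in place of 0, and members lower 2 without each member's top cell. For APM against control in Macrophage 8, members higher numbered 0 with a pseudocount of 50 CPM and after thinning, in place of 1. For HDM+APM against HDM, 1 member was higher as a mean over cells, in place of 0. For HDM+APM against APM, members higher numbered 1 with a pseudocount of 50 CPM, as a mean over cells and without marker-rich cells, and 0 after thinning, in place of 2, and members lower 0 after thinning and 2 as a mean over cells, in place of 1. After thinning only 2 or 3 members had 20 UMIs. The Clec4d level in granulocyte-like cells was 1166 CPM with libraries weighted equally and 810.2 to 1469 CPM leaving out each library. The Clec4n level was 1250 CPM after thinning and 1660 to 2186 CPM leaving out each library, and the Clec4e level 437.5 CPM after thinning. The Mgl2 level in dendritic cells was 54.5 to 107.7 CPM leaving out each library, the lowest without HDM, and the Cd209a level in Macrophage 8 was 41.6 CPM without HDM+APM, up to 63.8 CPM without APM, and 40.8 CPM after thinning. The cause of these moves was not tested, beyond the fewer cells or genes that each setting leaves.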
